A study of Mus musculus with 4 samples.

Results

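The 10 AP-1 and immediate early genes were followed in 4 cultured mouse mammary tumor cell lines with and without an edited S100a4 gene. They were Jun, Junb and Jund, the 3 Jun subunits, Fos, Fosb, Fosl1 and Fosl2, the 4 Fos subunits, Atf3, a related subunit, and Egr1 and Ier2, which are not AP-1 subunits. The 10 genes were listed by name out of 21090 genes in the expression table, and all 10 passed the filter of a mean of at least 1 RPKM (reads per kilobase of gene, scaled to the reads of the library) that left 10871 genes for testing. All lines go back to a primary tumor that had spread to the lung, in a mouse with an activated Pik3ca allele and a mutant Trp53 allele, which controls and knockouts therefore share. Cre under the MMTV promoter, which is active in mammary epithelium, switched those alleles on. The control group held the parental line (titled 307 cell) and a vector control of it, and the knockout group held an S100a4 exon 3 knockout (also titled 307 cell) and an S100a4 exon 2 knockout (titled 308 cell, although all lines are described as made from the same cells). The knockouts had received a lentivirus with Cas9 and a single guide RNA and had been selected with puromycin, and the study gives no growth stimulus or time course. Each line gave 1 library, so n = 2 in each group, and nothing says whether a line was a clone.

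AP-1 is a dimeric transcription factor. Jun proteins pair with each other or with Fos or ATF proteins through a leucine zipper, whereas Fos proteins need a partner from another family, usually a Jun protein. Many of these genes are immediate early genes, which growth factors, serum and stress switch on within minutes through the MAP kinases and without new protein synthesis, and in carcinoma cells Fosl1 (the protein Fra-1) is known for its link to mesenchymal character and invasion.

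Promoters of AP-1 genes carry sites for AP-1 itself and for the related CREB and ATF factors. RefSeq start sites (build GRCm38.p6) were on hand for 7 of the 10 genes, namely Jun, Junb, Jund, Fos, Fosb, Fosl2 and Atf3. The 250 bases before the start are shown 5′ to 3′ for Jun and Junb, which were lower in both knockouts than in both controls, and for Fos, which differed by more than any other of the 10 genes between the control lines. Capitals mark the Jun-type AP-1 site TGACATCA and the core TGACG of a cyclic AMP response element. The window was chr4:95052223-95052472 on the minus strand for Jun, chr8:84978749-84978998 on the minus strand for Junb and chr12:85473640-85473889 on the plus strand for Fos.
Jun: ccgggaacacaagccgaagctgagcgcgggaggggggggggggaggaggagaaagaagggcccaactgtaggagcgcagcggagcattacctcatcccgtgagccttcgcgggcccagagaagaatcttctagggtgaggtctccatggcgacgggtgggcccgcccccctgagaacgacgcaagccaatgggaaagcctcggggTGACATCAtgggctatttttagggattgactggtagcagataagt
Junb: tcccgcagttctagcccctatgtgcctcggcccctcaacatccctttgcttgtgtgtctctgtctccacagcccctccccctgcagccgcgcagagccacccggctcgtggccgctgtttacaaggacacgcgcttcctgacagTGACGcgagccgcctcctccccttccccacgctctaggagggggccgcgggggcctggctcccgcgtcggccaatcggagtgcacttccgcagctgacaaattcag
Fos: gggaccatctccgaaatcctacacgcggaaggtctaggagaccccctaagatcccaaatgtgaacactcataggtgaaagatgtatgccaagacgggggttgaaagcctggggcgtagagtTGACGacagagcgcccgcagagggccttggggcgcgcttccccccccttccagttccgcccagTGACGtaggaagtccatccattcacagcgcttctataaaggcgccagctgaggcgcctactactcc

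In the Jun window the site TGACATCA began 45 bases before the start. The core TGACG began 106 bases before the start of Junb, and 129 and 66 bases before the start of Fos. Among the other windows, Fosb held TGACG at 60 bases and Atf3 held it on the opposite strand, as CGTCA, at 7 bases. None of the motifs searched lay in the windows of Jund (chr8:70697489-70697738) and Fosl2 (chr5:32136222-32136471). The Jund window ended well before the annotated gene, which starts at 70698949. The windows of Fosl2 and Atf3 lay inside the annotated genes. For Jund, Fosl2 and Atf3 the bases just before the annotated gene were therefore not searched. Both strands were searched. Of 32851 promoter windows of the same length, 2.93% held TGACATCA, 17.8% held TGACG, 4.46% held the classical AP-1 site TGACTCA and 1.55% held TGACGTCA, which contains TGACG. The CArG box, the core of the serum response element, was in 1.47% of windows and in none of these 7. TGACG was added to the motifs after the sequences had been seen. A match is a description of the letters in a window and no binding was measured.

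RPKM is read per gene length and per library total, which did not even out all differences between libraries. The median ratio factor sets a library's RPKM against the geometric mean of the libraries and takes the median over genes. It was lowest in the exon 3 knockout, at 0.962, and highest in the vector control, at 1.1. The totals behind the RPKM columns were 22472024 to 31235456 reads, of which 64.4% to 66.6% fell in genes. S100a4, the edited gene, measured 3576 and 4741 RPKM in the parental and vector control lines, and 1136 and 1105 in the knockouts of exon 3 and exon 2. Its level was 3.71-fold lower in the knockouts than in the controls (limma, adjusted p = 0.0731), and RNA of the gene was still counted in both knockouts, whose guides target its coding sequence. The study reported truncating mutations in most S100a4 transcripts of the knockout lines, and loss of the protein by Western blot. Against the labelled tissue, of the 8 epithelial markers listed only Krt8 (27.5 to 78.9 RPKM) and Krt18 (6.10 to 60.2) had a mean of at least 1, and Epcam (0.304 to 0.657) and Cdh1 (0.117 to 0.252) were near 0. The 8 summed to 34.6 to 130 RPKM in controls and 74.9 to 107 in knockouts. All 10 mesenchymal markers passed, and their summed level was 6050 and 3323 RPKM in the parental and vector control lines, and 3190 and 3008 in the knockouts of exon 3 and exon 2. Gene by gene, 9 of the 10 mesenchymal markers were lower in the knockouts by their means and the median log2 difference was -0.54. Below both controls in both knockouts were 5, as were 31.2% of all tested genes. None passed the limma test. At an unadjusted p under 0.05 in limma 2 were lower, as were 13.8% of all tested genes. These were Col3a1 (-2.15) and Zeb2 (-1.21), both picked by the study from these libraries. Of 6 immune markers only Cd68 had a mean of at least 1 RPKM. Cd68 was at 4.92 and 3.36 RPKM in the controls and 11.5 and 13.2 in the knockouts (limma, adjusted p = 0.105). The sum of the 6 was 4.37 to 5.58 in controls and 12.3 to 13.8 in knockouts. The defining markers Ptprc (0 to 0.0101) and Cd3e (0) were at or near 0. None of 4 endothelial markers had a mean of at least 1 RPKM, and their summed levels were 0.186 to 0.443. The part of these differences in the AP-1 values was not tested. In bulk RNA, fewer cells expressing a gene and less RNA per cell cannot be told apart.

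**Figure D1:**
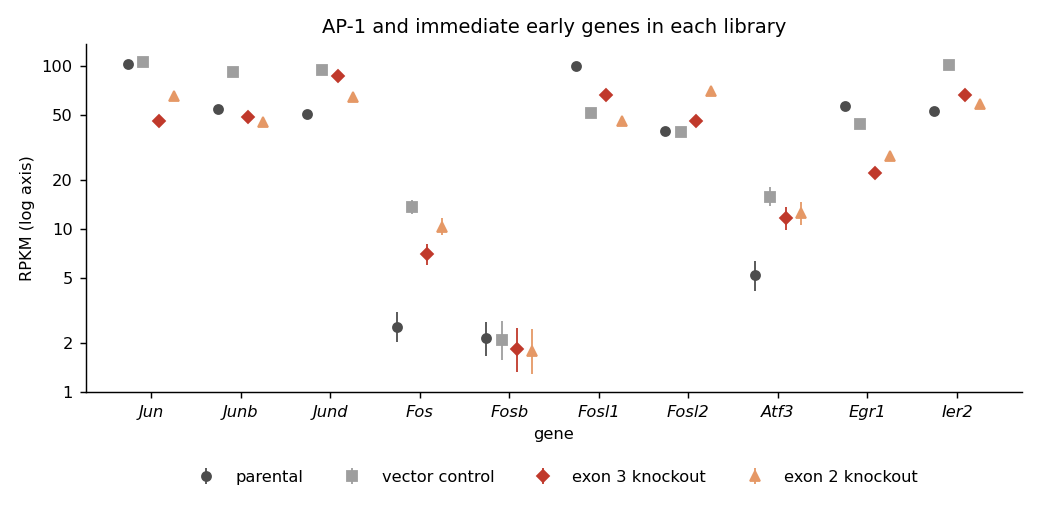
RPKM of the 10 genes in each of the 4 libraries, on a log axis. Each symbol is 1 library and each bar the exact 95% interval of its read count, which covers counting error only. Jun and Egr1 are lower in both knockouts (red and orange) than in both controls (grey), Fosl2 is higher, and Fos and Atf3 are lowest in the parental line.

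Jun and Egr1 were the members furthest below the controls in the knockouts, by 1.87-fold and 2.01-fold, and Fosl2 was the only one above both controls in both knockouts, by 1.47-fold. None of the 10 genes passed the test. Knockouts and controls were compared with limma on log2(RPKM + 1), a scale that understates the change of low genes, and p-values were adjusted over all tested genes. At an adjusted p under 0.05 the test called 0.0184% of the tested genes (2 of 10871) and 0 of the 10 members. Limma with voom on recovered whole reads, an analysis added after the data had been seen, called 0 genes and 0 members. At an unadjusted p under 0.05, 13.8% of tested genes were lower in the knockouts and 5.32% higher, against 2 members lower (Jun and Egr1) and 0 higher. With 2 libraries a group, an exact permutation test of a single value cannot go below p = 0.333.

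Read without a model, 4 members (Jun, Junb, Fosb and Egr1) were below both controls in both knockouts, a pattern shared by 31.2% of the tested genes. Fosl2 alone was above both controls in both knockouts, as were 21.9% of the tested genes. The other 5 members (Jund, Fos, Fosl1, Atf3 and Ier2) overlapped between the groups. No member was at least 2-fold lower, on the log2(RPKM + 1) scale, in all 4 pairings of a knockout with a control, a cut that 1.73% of tested genes met, and none was 2-fold higher in all 4, which 0.267% met. The median log2 difference between knockouts and controls was -0.19 over the members and -0.08 over all tested genes. With 1 control left out, more of all genes met such a pattern. Without the parental line 8 members and 47.3% of tested genes were below the remaining control in both knockouts, and without the vector control 5 members and 37.8% of tested genes were above it.

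Jun encodes c-Jun, the founding AP-1 subunit, and is a gene of 1 exon (chromosome 4 from 95049034 to 95052222, build GRCm38, minus strand). Its level was 104 and 106 RPKM in the parental and vector control lines, and 46.2 and 65.7 in the knockouts of exon 3 and exon 2. The controls lay within 1.02-fold of each other, with overlapping 95% counting intervals (100 to 107 and 102 to 110 RPKM), and both knockouts lay below them. Group means were 104.6 ± 1.43 RPKM in controls and 55.9 ± 13.8 in knockouts (SD, n = 2 each). The difference was -0.91 on the log2 scale with an SE of 0.307 and a 95% interval of -1.59 to -0.24 (limma, adjusted p = 0.172). Jun stood above 92.3% of tested genes in the parental line and above 77.9% in the exon 3 knockout. The study had picked Jun from these libraries as a gene of the Ras and Pi3k pathway that was affected, so the direction of Jun here is no independent evidence.

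Junb encodes JunB, a weaker activator than c-Jun that can oppose it, and is also a gene of 1 exon (chromosome 8 from 84974484 to 84978718, minus strand). Junb measured 54.4 and 92.8 RPKM in the parental and vector control lines, and 48.7 and 45.4 in the knockouts of exon 3 and exon 2. The parental line was close to the knockouts, and the vector control stood 1.71-fold above it. The knockouts had overlapping counting intervals (46.0 to 51.6 and 42.8 to 48.3 RPKM). The group difference was -0.58 on the log2 scale (SE 0.332, 95% interval -1.31 to 0.14), with a limma adjusted p of 0.354. Leaving out the vector control gave -0.21, and leaving out the parental line gave -0.96.

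Jund encodes JunD, a Jun subunit that is expressed in most resting cells and is less inducible than its relatives. Jund (1 exon, chromosome 8 from 70698949 to 70700616, plus strand) overlaps the annotated gene Gm11175 in its coding exon, and whether counting used the strand is not stated. Levels were 50.9 and 95.1 RPKM in the parental and vector control lines, and 87.5 and 64.8 in the knockouts of exon 3 and exon 2. The highest and the lowest library were both controls, so the groups overlapped. The log2 difference was 0.11 (SE 0.355, 95% interval -0.67 to 0.89, limma adjusted p = 0.885), and its sign turned without the parental line (-0.33) and without the exon 3 knockout (-0.10).

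Among the Fos subunits, Fos itself was low. Fos encodes c-Fos, the short-lived partner of c-Jun, from 4 exons (chromosome 12 from 85473890 to 85477273, plus strand). Fos measured 2.52 and 13.8 RPKM in the parental and vector control lines, from 90 and 400 reads, and 7.04 and 10.4 RPKM in the exon 3 and exon 2 knockouts, from 189 and 267 reads. No interval overlapped another, and the vector control was 5.47-fold above the parental line (12.5 to 15.2 against 2.03 to 3.10 RPKM), with both knockouts between them. Fos stood above 8.36% of the tested genes in the parental line, against 43.5% for the vector control. The difference between groups was 0.41 on the log2 scale with an SE of 0.553 (95% interval -0.80 to 1.62, limma adjusted p = 0.705). Against the vector control alone it was -0.63, and against the parental line alone it was 1.44.

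Fosb encodes FosB, an immediate early subunit studied most in the brain (4 exons, chromosome 7 from 19302696 to 19310051, minus strand). It was the lowest of the 10 genes in every library, at 2.14 and 2.09 RPKM in the parental and vector control lines, and 1.84 and 1.79 in the knockouts of exon 3 and exon 2. These values rested on 68, 54, 44 and 41 reads. All 4 intervals overlapped (1.66 to 2.71, 1.57 to 2.73, 1.34 to 2.47 and 1.29 to 2.43 RPKM), so the ordering of the libraries lay within counting error. The log2 difference was -0.14 (SE 0.365, limma adjusted p = 0.852).

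Fosl1 encodes Fra-1 from 4 exons (chromosome 19 from 5447547 to 5455946, plus strand), and its coding exons overlap an exon of Ccdc85b. Fosl1 was at 100 and 51.8 RPKM in the parental and vector control lines, and 66.8 and 46.0 in the knockouts of exon 3 and exon 2. The parental line stood 1.94-fold above the vector control, and the vector control and the exon 2 knockout had overlapping intervals (48.7 to 55.0 and 43.0 to 49.2 RPKM). The mesenchymal marker sum was likewise highest in the parental line, and its part in the Fosl1 values was not tested. The log2 difference between groups was -0.37 (SE 0.368, 95% interval -1.18 to 0.43, limma adjusted p = 0.592), and it moved to -0.84 without the vector control but to 0.10 without the parental line.

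Fosl2 encodes Fra-2, the closest relative of Fra-1 (4 exons, chromosome 5 from 32135801 to 32157842, plus strand). Its values were 40.04 and 39.5 RPKM in the parental and vector control lines, and 46.4 and 70.7 in the knockouts of exon 3 and exon 2. The controls were within 1.01-fold of each other, and both knockouts were above them, the exon 2 knockout by the wider margin. Counting intervals separated the exon 3 knockout (43.7 to 49.3 RPKM) from the parental line (37.8 to 42.4). Group means were 39.8 ± 0.387 RPKM in controls and 58.6 ± 17.2 in knockouts (SD, n = 2 each). The log2 difference was 0.52 (SE 0.317, 95% interval -0.18 to 1.21, limma adjusted p = 0.386), and it was 0.22 without the exon 2 knockout.

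Atf3 encodes a stress-induced factor of the ATF family that pairs with Jun proteins (4 exons, chromosome 1 from 191170296 to 191218039, minus strand). Atf3 reached 5.22 and 15.9 RPKM in the parental and vector control lines, and 11.7 and 12.6 in the knockouts of exon 3 and exon 2, from 89 to 220 reads. The parental line was below the other 3, and the knockouts had overlapping intervals (9.91 to 13.7 and 10.7 to 14.7 RPKM). The group difference was 0.36 on the log2 scale (SE 0.437, limma adjusted p = 0.677), with the opposite sign against the vector control alone (-0.36).

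Egr1 is no AP-1 subunit but a zinc finger factor that the same signals induce through serum response elements, and its gene of 2 exons lies on chromosome 18. Egr1 measured 56.8 and 44.3 RPKM in the parental and vector control lines, and 22.2 and 28.2 in the knockouts of exon 3 and exon 2. Both knockouts lay below both controls, and the 4 counting intervals were separate, from 20.7 to 23.7 RPKM in the lowest library to 54.8 to 59.0 in the highest. Group means were 50.6 ± 8.87 RPKM in controls and 25.2 ± 4.25 in knockouts (SD, n = 2 each). The log2 difference of -0.98 had an SE of 0.312 and a 95% interval of -1.66 to -0.29 (limma, adjusted p = 0.159). It was between -1.15 and -0.80 when either control was left out.

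Ier2 is an immediate early gene of 1 exon whose product acts in the nucleus (chromosome 8 from 84661331 to 84662852, minus strand). Ier2 measured 53.4 and 102 RPKM in the parental and vector control lines, and 67.1 and 58.9 in the knockouts of exon 3 and exon 2. As for Jund, the highest and lowest libraries were both controls, 1.91-fold apart. The log2 difference was -0.23 (SE 0.350, 95% interval -0.996 to 0.54, limma adjusted p = 0.742), and it turned to 0.23 without the vector control.

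**Figure D2:**
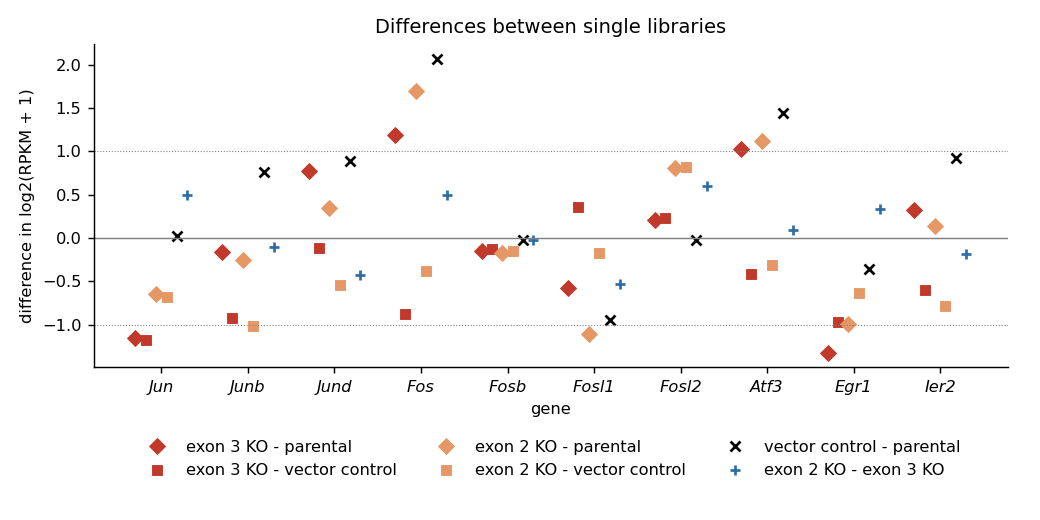
Differences between single libraries in log2(RPKM + 1) for each gene. Diamonds and squares compare a knockout (KO) with the parental line or the vector control, crosses compare the vector control with the parental line, and plus signs compare the knockouts, and dotted lines mark 2-fold. For Fos and Atf3 the cross lies above every knockout comparison, and for Jun, Egr1 and Fosl2 all 4 knockout comparisons share a sign.

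For Fos, Atf3, Jund and Ier2 both knockouts lay between the control lines, so the controls were necessarily further apart than any knockout was from either. The share of all tested genes in that order was not counted. In the vector control against the parental line, Fos (2.07 on the log2(RPKM + 1) scale) and Atf3 (1.44) were at least 2-fold apart, which makes 2 of the 10 members, as were 8.53% of the tested genes. Ier2 (0.92), Jund (0.89) and Junb (0.76) were also higher in the vector control, and Fosl1 (-0.94) was lower. Jun (0.03), Fosl2 (-0.02) and Fosb (-0.02) differed least. The vector control was the highest library for 6 members (Jun, Junb, Jund, Fos, Atf3 and Ier2), as it was for 36.6% of tested genes. The parental line was the lowest for 4 (Jund, Fos, Atf3 and Ier2), as it was for 29.5% of tested genes. With 1 library each, the vector and the variation between cultures cannot be told apart.

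Between the knockouts, no member was 2-fold apart on the same scale, compared with 4.99% of tested genes. The exon 2 knockout was the higher for Fosl2 by 1.52-fold, for Fos by 1.48-fold and for Jun by 1.42-fold. The exon 3 knockout was the higher for Fosl1 by 1.45-fold and for Jund by 1.35-fold. Junb (-0.10), Atf3 (0.09) and Fosb (-0.03) were within 0.10 of each other on the log2 scale, and their counting intervals overlapped.

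**Figure D3:**
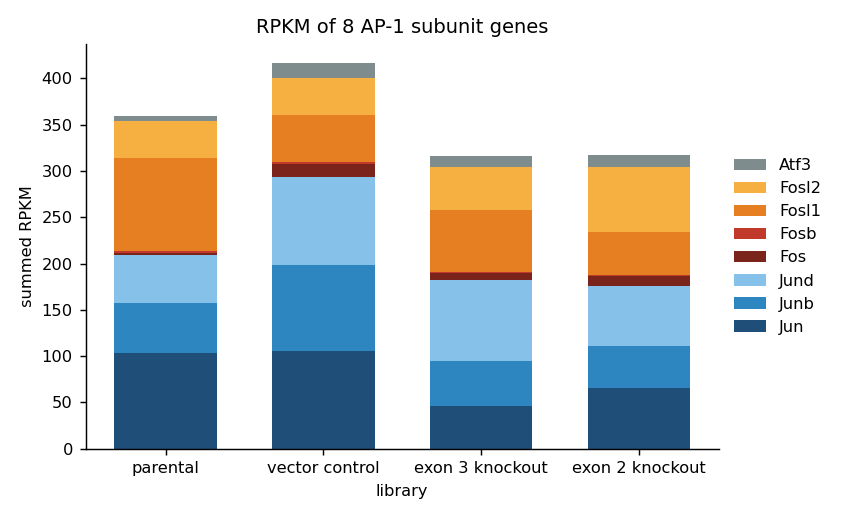
Summed RPKM of the 8 AP-1 subunit genes in each library, stacked by gene, with Jun subunits in blue, Fos subunits in red to yellow and Atf3 in grey. The bars reach 359, 416, 316 and 317 RPKM from left to right. The Jun block is shortest in the exon 3 knockout and the Fosl2 block is tallest in the exon 2 knockout.

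The 8 subunits form a shared pool of possible partners, and the makeup of its RNA differed between lines. Protein was not measured, and the sums and shares were not corrected for GC content or length of the coding sequence. The summed level of the 8 subunits was 359 and 416 RPKM in the parental and vector control lines, and 316 and 317 in the knockouts of exon 3 and exon 2. Control means were 387.7 ± 40.6 RPKM and knockout means 316.8 ± 0.874 (SD, n = 2 each). The difference of -70.9 RPKM had p = 0.333 in a two-sided exact permutation test, the smallest that test can give. The 3 Jun subunits made up 209 and 293 RPKM in the parental and vector control lines, and 182 and 176 in the knockouts of exon 3 and exon 2, a mean difference of -71.9 (exact permutation p = 0.333). When the vector control was left out, the difference was -42.2 RPKM for the pool and -29.6 for the Jun subunits. The 4 Fos subunits summed to 145, 107, 122 and 129 RPKM in the same order, a mean difference of -0.575 (exact permutation p = 1), which was -19.5 without the vector control but 18.4 without the parental line.

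As a share of the pool, Fos subunits held 40.4% and 25.7% in the parental and vector control lines, and 38.6% and 40.6% in the knockouts of exon 3 and exon 2. The vector control was the library that stood apart. The mean share was 33.1 ± 10.4% in controls and 39.6 ± 1.41% in knockouts (SD, n = 2 each), 6.56 percentage points higher in the knockouts (exact permutation p = 0.667). Without the vector control the difference was -0.776 points. Jun subunits held 58.2%, 70.5%, 57.7% and 55.4% of the pool, with a mean difference of -7.75 points (exact permutation p = 0.333) that was -1.60 points when the vector control was left out.

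The leading subunit differed between lines. Jun led in both controls, with 28.8% and 25.4% of the pool, Jund led in the exon 3 knockout with 27.7%, and Fosl2 led in the exon 2 knockout with 22.3%. Fosl1 and Fosl2 together made up between 85.2% and 96.8% of Fos subunit RPKM in all 4 libraries, so c-Fos and FosB transcripts were the minority throughout. The ratio of Fosl1 to Fosl2 was 2.51 and 1.31 in the parental and vector control lines, and 1.44 and 0.651 in the knockouts of exon 3 and exon 2. Only in the exon 2 knockout did Fosl2 exceed Fosl1, and with 1 library that difference has no replicate check.

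**Figure D4:**
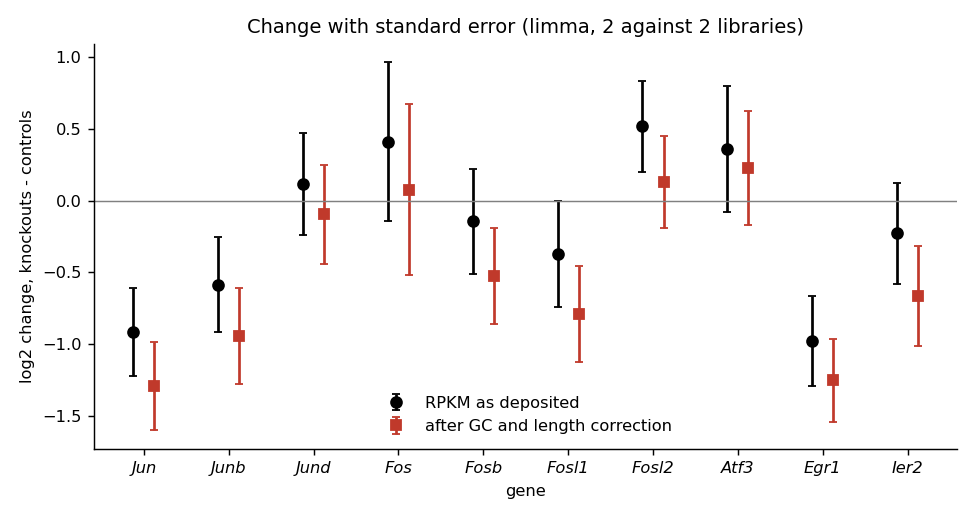
Log2 difference between knockouts and controls for each gene with its SE from limma (2 libraries against 2), from the deposited RPKM (black circles) and after each library was corrected for GC content and length of the coding sequence (red squares). Every corrected value lies below the uncorrected one. Jun and Egr1 lie furthest below 0 in both.

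Base composition moved with the comparison. Across 10772 tested genes the log2 difference was tied to coding GC content (Pearson r = 0.458, across genes, which are not independent replicates). Coding GC content of the members ran from 50.7% in Atf3 to 70.6% in Jund. With each library adjusted for the GC content and length of coding sequences, the log2 difference was -1.29 for Jun (limma, adjusted p = 0.179), -1.25 for Egr1 (0.176), -0.94 for Junb (0.303), -0.79 for Fosl1 (0.363), -0.66 for Ier2 (0.456) and -0.53 for Fosb (0.538). Jund turned from 0.11 to -0.10. Fosl2 was at 0.13, Fos at 0.08 and Atf3 at 0.22, so after correction 0 members were above both controls in both knockouts, as were 17.1% of tested genes. Below both controls were 6 members (Jun, Junb, Fosb, Fosl1, Egr1 and Ier2), as were 28.3% of tested genes. Whether GC content has a part in the uncorrected values was not tested beyond this correction.

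The study asked how loss of S100a4 alters expression in these lines, and the genes around AP-1 were therefore counted in lists by role. No gene of any list passed the test. Counts of genes below or above both controls are set against the 31.2% and 21.9% of all tested genes given for the members. Counts at an unadjusted p under 0.05 in limma are set against 13.8% of all tested genes lower and 5.32% higher.

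**Figure D5:**
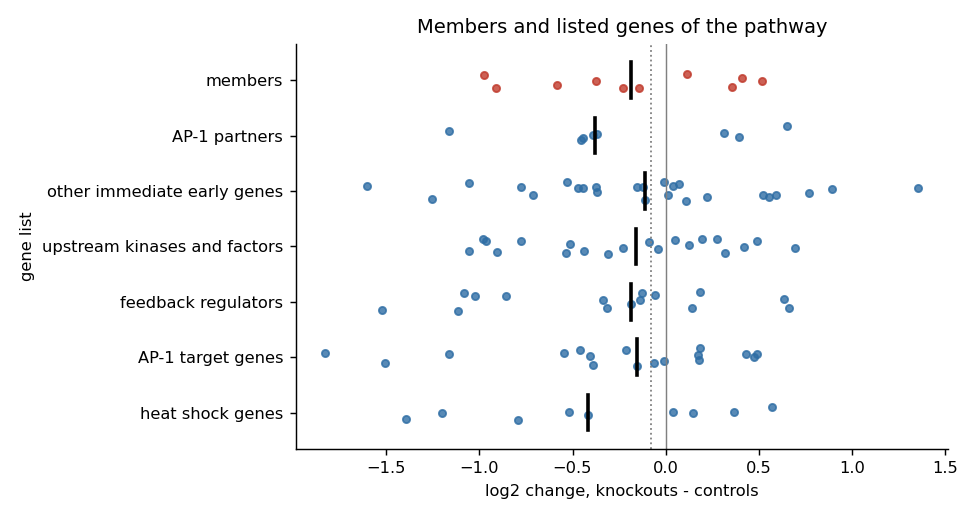
Log2 difference between knockouts and controls of each tested gene, for the 10 members (red) and 6 lists of related genes (blue). Black bars mark each list's median, the solid line marks 0 and the dotted line marks the median of all tested genes (-0.08). The medians lie between -0.42 and -0.11, and each list holds genes on both sides of 0.

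Other leucine zipper partners of AP-1 numbered 8 tested of 11 listed, with 4 below and 2 above both controls and a median log2 difference of -0.38. At an unadjusted p under 0.05 limma had 1 of them lower and 0 higher. Maf, a large Maf protein, was at 32.8 and 12.2 RPKM in the parental and vector control lines, and 9.99 and 7.08 in the knockouts of exon 3 and exon 2 (limma, log2 difference -1.17, adjusted p = 0.194), and its difference was -0.49 when the parental line was left out and -1.84 when the vector control was. Maff, a small Maf protein without an activation domain, was at 10.4 and 6.42 RPKM in the same controls and 13.7 and 13.2 in the knockouts. Its log2 difference was 0.65 (limma, adjusted p = 0.318). Mafg (log2 difference -0.45) and Atf2 (-0.44), a Jun partner that JNK phosphorylates, were below both controls. With the GC and length correction Maff was at 0.29, Mafg at -0.96 and Atf2 at -0.18.

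Other immediate early genes split in both directions. Of 28 listed, 25 were tested, 8 were below and 4 above both controls, and the median was -0.11. At an unadjusted p under 0.05 limma had 3 lower and 2 higher. Ptgs2, the inducible cyclooxygenase, was at 28.1 and 58.8 RPKM in the parental and vector control lines, and 14.5 and 11.1 in the knockouts of exon 3 and exon 2 (limma, log2 difference -1.61, adjusted p = 0.105). Gadd45b, a stress gene acting on MAP kinase signalling, was at 36.6, 47.5, 81.6 and 144 RPKM in that order (1.36, 0.116), and its difference was 0.87 with the GC and length correction. Btg2, an antiproliferative gene, was at 17.7, 23.0, 10.8 and 5.69 RPKM (-1.25, 0.138). Nr4a2, an orphan nuclear receptor, was at 3.49, 5.37, 1.16 and 2.06 RPKM (-1.06, 0.189). Egr4 was listed at 0 in all libraries.

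Kinases and factors upstream of AP-1 were all 20 tested, with 7 below and 6 above both controls and a median of -0.16, and at an unadjusted p under 0.05 limma had 5 lower and 1 higher. The leading genes were Rps6ka3, a kinase downstream of Erk (log2 difference -1.06), Mapk8, which encodes the Jun kinase JNK1 (-0.98), Creb1 (-0.97) and Elk4, a partner of serum response factor (-0.91). Mapk8 was at 6.42 and 15.2 RPKM in the parental and vector control lines, and 3.88 and 5.33 in the knockouts of exon 3 and exon 2, and when the vector control was left out its difference was -0.42 and that of Creb1 was -0.64. Their limma adjusted p-values were 0.164, 0.234, 0.193 and 0.197 in the order named. After the GC and length correction the log2 differences were -0.45, -0.52, -0.80 and -0.80.

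Feedback regulators damp these signals, which induce many of them, and all 15 were tested. Among them 5 were below and 2 above both controls, and the median was -0.18 and -0.41 after the GC and length correction. At an unadjusted p under 0.05 limma had 5 lower and 0 higher. Nab1, a repressor that binds Egr proteins, was at 23.4 and 33.6 RPKM in the parental and vector control lines, and 8.02 and 10.3 in the knockouts of exon 3 and exon 2 (limma, log2 difference -1.52, adjusted p = 0.0979). Spred1 (-1.12) and Spry4 (-1.02), inhibitors of the Ras and Erk pathway, and Dusp2 (-1.08), a phosphatase of MAP kinases, were also below both controls. Spry4 was at 18.5 and 6.41 RPKM in the parental and vector control lines, and 6.18 and 3.89 in the knockouts of exon 3 and exon 2, and its difference was -0.32 when the parental line was left out and -1.72 when the vector control was. Spred1 was at 35.7 and 18.6 RPKM in the controls and 8.73 and 14.7 in the knockouts, with a difference of -0.66 when the parental line was left out.

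Genes known as AP-1 targets numbered 17 tested of 22 listed, with 7 below both controls and 1 above, and a median of -0.15, or -0.38 after the GC and length correction. At an unadjusted p under 0.05 limma had 3 lower and 0 higher. Ccl2, a chemokine that attracts monocytes, was at 104 and 225 RPKM in the parental and vector control lines, and 50.8 and 35.2 in the knockouts of exon 3 and exon 2 (limma, log2 difference -1.83, adjusted p = 0.0979). Mmp9, a gelatinase, was at 3.42, 3.03, 0.971 and 0.122 RPKM in that order (-1.505, 0.130). Lif, a cytokine of the interleukin 6 family, was at 17.0, 22.8, 7.59 and 8.94 RPKM (-1.17, 0.134). Vim, which encodes the intermediate filament vimentin, was at 2418, 2060, 1362 and 1721 RPKM (-0.54, 0.355). The study had picked Ccl2, Mmp9 and Mmp3 from these libraries as lower in the knockouts, so their direction is no independent evidence. Mmp1a was listed at 0 in all libraries.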

How the data were processed

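RNA-seq libraries of 4 cell lines were grouped by their titles into 2 controls and 2 knockouts. The authors deposited RPKM values, unlogged, with 1 column per library. The submitters' processing notes name CASAVA 1.8, GSNAP and GRCm38, with no role given, and the gene model, counting rule and use of strand are not given in the sources used here. The labels name a stranded total RNA kit. All columns matched a library, and 0 did not. Ratios between libraries returned whole reads, within 0.001 reads, for 15398 of 15405 genes above 0, with lengths equal to the coding length (GENCODE M21) for all 10 members. Exact 95% binomial intervals came from these reads and cover counting error only.

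Genes with a mean RPKM of at least 1 were tested with limma 3.58.1 (R 4.3.3) with an intensity trend on log2(RPKM + 1), with Benjamini-Hochberg adjustment over all tested genes and a threshold of 0.05, after the step was tested on simulated data. Sums and shares were compared with two-sided exact permutation tests. Other steps used Python 3.11.15, numpy 2.4.6, pandas 2.3.3 and scipy 1.17.1. The labels do not say that libraries came from separate cultures, so p-values measure only the spread between these libraries, which may be technical.

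The members and lists were chosen with earlier results of these data known. Named were all 10 members, S100a4, and from each list up to 4 genes with the largest absolute log2 difference among those with both knockouts on 1 side of both controls. Alternatives were a pseudocount of 0.1, median ratio scaling, quantile normalization, no filter or a mean RPKM of at least 5, no trend, a robust prior, correction for coding GC content and length (spline with 5 degrees of freedom), 3-fold, Atf3 left out of the pool, reads in place of RPKM, and leaving out each library. Voom on the recovered reads was added after the data had been seen.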

Additional observations from a re-analysis of the deposited data

How the results depend on the processing

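No paired analysis was possible because the labels give no shared replicate numbers. None of the 10 members passed the limma threshold under any alternative, with the smallest adjusted p of any member between 0.06 (without the vector control) and 0.645 (without the exon 3 knockout). The count of genes called, 2 with limma as reported (2076 at an unadjusted p under 0.05), was 0 after GC and length correction (1419 at an unadjusted p under 0.05), 0 with median ratio scaling (2171), 0 without a filter (2132), 0 with voom on recovered reads (2044), 1 with a pseudocount of 0.1, 1 with quantile normalization, 2 without a trend, 32 with a mean RPKM of at least 5 (25 lower and 7 higher) and 285 with a robust prior (242 lower and 43 higher). It ranged from 3 to 788 when 1 library was left out, with 451 without the vector control, 788 without the parental line, 4 without the exon 3 knockout and 3 without the exon 2 knockout. With 1 library left out, the count of members below both controls, 4, ranged from 4 to 8, beside 40.8% to 47.3% of tested genes. The count above, 1, ranged from 1 to 5, beside 31.3% to 37.8% of tested genes. The count below was 3 with median ratio scaling (26.7% of tested genes), quantile normalization (24.0%) or the stricter filter (28.3%). It was 6 after GC and length correction (28.3%). The count above was 0 after GC and length correction (17.1% of tested genes) and 2 with quantile normalization (27.7%). The Fos subunit share difference, 6.56 points, ranged from -0.776 to 13.9 points, the lowest without the vector control and the highest without the parental line. The count of members 2-fold apart between the controls, 2, was 1 at 3-fold and 3 with median ratio scaling or quantile normalization. The share of all tested genes was not counted for those alternatives. Jun, Junb, Fosl2 and Egr1 kept their direction under every alternative. The log2 difference turned for Jund to -0.10 after GC and length correction, -0.33 without the parental line and -0.10 without the exon 3 knockout (up to 0.56 without the vector control). Without the parental line it turned for Fos to -0.63, for Atf3 to -0.36 and for Fosl1 to 0.10, against 1.44, 1.08 and -0.84 without the vector control. It turned for Fosb to 0.19 with quantile normalization, and for Ier2 it ranged from -0.69 without the parental line to 0.23 without the vector control. The causes were not tested. Of 451 values of 35 members and named genes under the alternatives, 416 kept direction and side of the threshold, 27 passed it with the same direction, and 8 turned. Fosb had no value with the stricter filter. The median log2 difference of all tested genes was -0.08 as deposited, 0.03 with median ratio scaling and 0.04 with quantile normalization. Depth limits Fosb, with 41 to 68 reads a library.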

Other observations

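Heat shock genes, which stress switches on alongside immediate early genes and which encode chaperones, had 9 of 10 tested, 4 below and 2 above both controls and a median log2 difference of -0.42. Of all tested genes, 31.2% were below and 21.9% above both controls. No heat shock gene passed the limma test. At an unadjusted p under 0.05 limma had 2 lower and 0 higher, against 13.8% and 5.32% of all tested genes. With the correction for GC content and length the median was -0.08, with Hsp90aa1 at -0.62 and Dnaja1 at -0.32. When the vector control was left out, Hsph1 was at -0.74 and Dnaja1 at -0.33. Hsph1, which encodes a large Hsp70 relative, was at 46.5 and 116 RPKM in the parental and vector control lines, and 23.6 and 31.8 in the knockouts of exon 3 and exon 2 (limma, log2 difference -1.39, adjusted p = 0.138). Hsp90aa1, the inducible cytosolic Hsp90, was at 12.1, 21.1, 4.50 and 9.02 RPKM in that order (-1.20, 0.169). Dnaja1, a co-chaperone of Hsp70, was at 6.57, 13.5, 3.85 and 6.49 RPKM (-0.80, 0.303). Hspe1, the mitochondrial co-chaperonin, was at 81.2, 113, 164 and 124 RPKM (0.57, 0.339). The vector control was the higher control for each of these 4 genes, and among the members for Jun, Junb, Jund, Fos, Atf3 and Ier2. The parental line was the higher control for Fosb, Fosl1, Fosl2 and Egr1. How many of all tested genes were higher in the vector control than in the parental line was not counted. It was the highest of all libraries for 36.6% of them.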
